A study of Mus with 15 samples.

Results

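Mki67, Top2a, Ccna2, Ccnb1, Pcna, Ccnd1 and Ccnd2 were taken as genes of the cell cycle and of proliferation, and 1 transcript of each was followed through the abdominal aorta of 15 mice. The transcripts were chosen by name, from a list of 7 Ensembl identifiers, and not by a rule on their measured values. Earlier results of these data were known when the list was made. All 7 were held by all 15 files, which share 108027 Ensembl transcripts. Wild-type male C57BL/6 mice (8 to 10 weeks old per the methods) were treated for 14 days in 3 groups of 5. Control mice were infused with saline and AngII mice with angiotensin II (AngII), the peptide hormone that raises blood pressure, at 500 ng/kg/min by osmotic pump. AngII + QDG mice received the same AngII infusion and Qingda granule (QDG), a herbal preparation from traditional Chinese medicine, at 1.145 g/kg/day into the stomach, whereas the mice of the other groups were given water by that route. The mice carried no engineered allele. Levels were read as FPKM, fragments counted per length of transcript and per mapped fragments of the library, so that transcripts may be set side by side within a mouse. Comparisons between mice also depend on how the libraries are scaled. A different scaling shifted the changes in AngII + QDG against AngII, as given below.

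A cell enters the division cycle when D-type cyclins, which carry growth signals, activate the kinases that release the genes of DNA synthesis. Proteins of the replication fork then act during S phase, cyclin A spans S and G2 phase, and cyclin B drives entry into mitosis. Smooth muscle cells of a healthy adult artery rarely divide, and growth of the arterial wall under raised pressure can come from larger cells, more cells or more matrix.

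None of the transcripts passed the test between any of the groups, where the spread between mice was wide. In each group, 1 mouse stood above the other 4 in most of the transcripts: mouse 3971 of Control, mouse 4048 of AngII and mouse 3985 of AngII + QDG. These 3 mice held 8.45 to 9.91 FPKM of Mki67, and the other 12 mice held 0.472 to 3.30 FPKM. Ccna2, Ccnb1 and Pcna were likewise higher in these 3 mice than in each of the other 12, and the measured transcripts of Top2a and Ccnd2 were not.

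By level, the transcripts fell into an order that held in most mice. Pcna was the highest, at 52.6 ± 15.5 FPKM (SD, n = 15), followed by Ccnd2 at 23.7 ± 5.84 FPKM and Ccnd1 at 18.4 ± 4.79 FPKM. Mki67 lay at 3.23 ± 3.13 FPKM and Ccna2 at 3.00 ± 2.78 FPKM. Ccnb1 was between 0 and 4.99 FPKM, and Top2a between 0.0103 and 1.43 FPKM. Pcna exceeded Ccnd2, Ccnd1 exceeded Mki67 and Ccna2 exceeded Ccnb1 in 15 of 15 mice, and Ccnd2 exceeded Ccnd1 in 13 of 15. Mki67 exceeded Ccna2 in 9 of 15 mice and Ccnb1 exceeded Top2a in 8 of 15, so that the order of these neighbours was not settled within mice. Across mice, the range of Pcna (35.0 to 87.6 FPKM) lay above that of Ccnd2 (9.38 to 31.0 FPKM), and the ranges of all other neighbours overlapped.

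**Figure D1:**
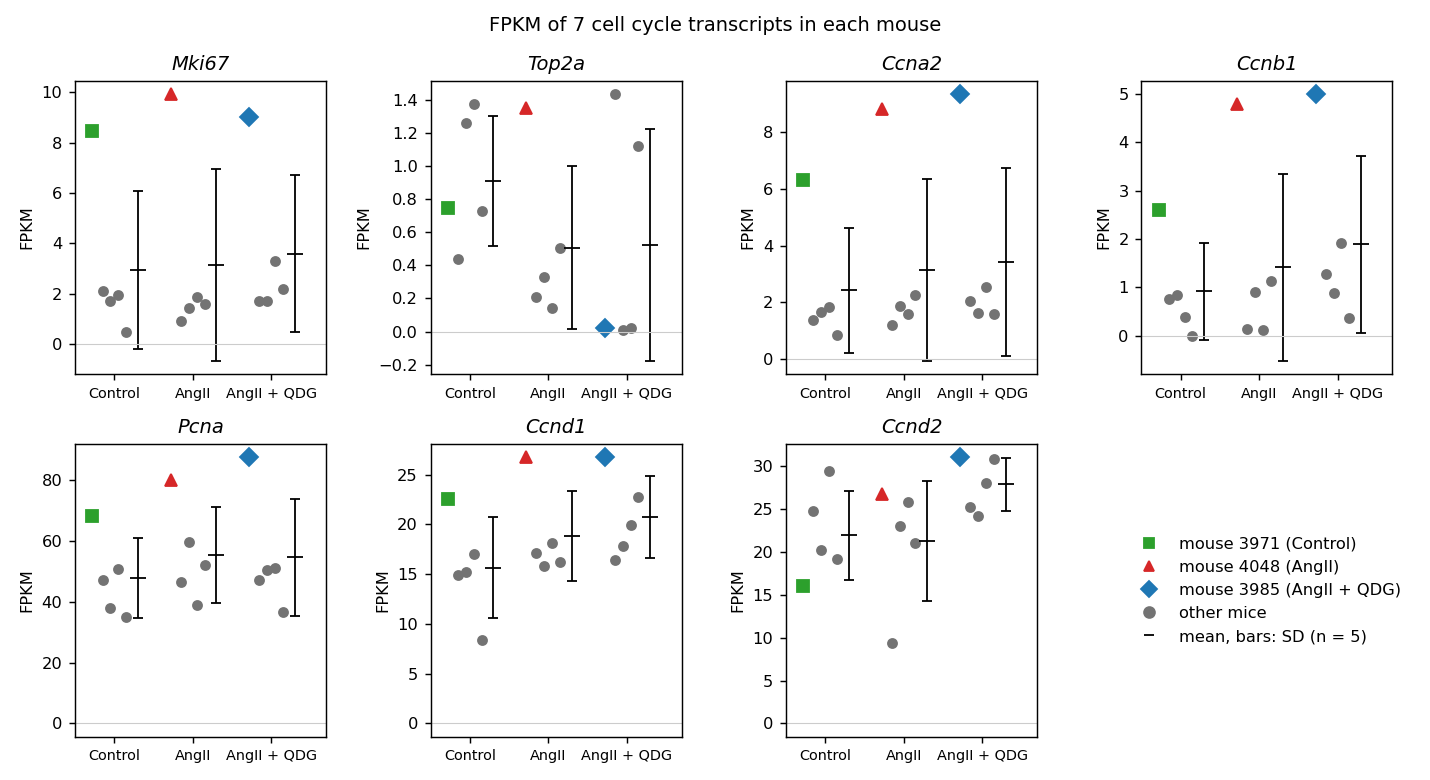
FPKM (y axis, linear, a separate scale for each panel) of the 7 transcripts in the 15 mice, by group. Grey points are single mice, coloured symbols mark mouse 3971 (green square), mouse 4048 (red triangle) and mouse 3985 (blue diamond), and the bars are the mean and SD of 5 mice. The coloured symbols are the highest of their group for Mki67, Ccna2, Ccnb1, Pcna and Ccnd1, whereas for Top2a the blue diamond is at 0.0222 FPKM and for Ccnd2 the green square is the lowest Control mouse.

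Mki67 (ENSMUST00000033310, a protein-coding gene at chr7:135689784-135716450 of GRCm38.p6 in RefSeq, the build of all gene positions here) encodes Ki-67, a protein that coats mitotic chromosomes and is used as the standard stain for dividing cells. Its level in Control mice 3996, 4000, 4086, 3971 and 3994 was 2.13, 1.72, 1.97, 8.45 and 0.472 FPKM, respectively. In AngII mice 3988, 3989, 3986, 3987 and 4048 it was 0.909, 1.42, 1.87, 1.61 and 9.91 FPKM, and in AngII + QDG mice 3981 to 3985 it was 1.70, 1.72, 3.30, 2.20 and 9.02 FPKM. Each group thus held 1 high mouse and 4 low ones, and the ranges of the groups overlapped. The high mouse was at 4.57 times the median of the other 4 in Control, at 6.55 times in AngII and at 4.61 times in AngII + QDG. Without it, the group means went from 2.95, 3.14 and 3.59 FPKM to 1.57, 1.45 and 2.23 FPKM, so that 1 animal of 5 set much of each mean. In these bulk samples, more cells of a kind and more RNA per cell cannot be told apart.

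Ccna2 (ENSMUST00000029270, chr3:36564865-36573038) encodes cyclin A2, the partner of the kinases that act in S phase and up to mitosis. The Control mice, in the order above, held 1.38, 1.68, 1.85, 6.33 and 0.861 FPKM. The AngII mice held 1.19, 1.87, 1.57, 2.25 and 8.83 FPKM, and the AngII + QDG mice held 2.04, 1.61, 2.55, 1.58 and 9.34 FPKM. The same 3 mice stood apart as for Mki67, at 4.14, 5.13 and 5.13 times the median of the other 4 in Control, AngII and AngII + QDG. Control mouse 3994 was the lowest of all 15 for both transcripts. The ratio of Ccna2 to Mki67 was 0.749 to 1.04 in the 3 high mice and 0.650 to 1.82 (median 0.956) in the other 12, so that its range in the high mice lay within that of the rest.

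Ccnb1 (ENSMUST00000072119, chr13:100778739-100786486) encodes cyclin B1, which with its kinase starts mitosis. In Control mice it was 0.761, 0.846, 0.376 and 2.60 FPKM in the first 4 and was listed at 0 in mouse 3994. In AngII mice it was 0.145, 0.902, 0.111, 1.13 and 4.79 FPKM, and in AngII + QDG mice 1.28, 0.883, 1.91, 0.364 and 4.99 FPKM. Mice 3971, 4048 and 3985 were again the highest of their groups, at 2.60 to 4.99 FPKM against 0 to 1.91 FPKM in the other 12. At these low levels the values of the other mice varied widely, and the depth behind each FPKM is unknown, so that small differences were not detectable.

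Pcna (ENSMUST00000028817, chr2:132249286-132253180) encodes the ring that holds DNA polymerase on its template, a protein that also serves in DNA repair and is made in cells that are not dividing. It was 47.0, 37.8, 50.9, 68.2 and 35.0 FPKM in Control, 46.4, 59.6, 38.8, 52.0 and 80.0 FPKM in AngII, and 47.1, 50.6, 51.1, 36.8 and 87.6 FPKM in AngII + QDG. The same 3 mice were the highest, at 68.2 to 87.6 FPKM against 35.0 to 59.6 FPKM in the other 12. Their distance was smaller than for Mki67, at 1.61, 1.63 and 1.79 times the median of the other 4, on a level that was high in every mouse.

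Top2a (ENSMUST00000068031, chr11:98992947-99024199) encodes topoisomerase II alpha, which untangles the DNA of dividing cells. Its transcript was 0.435, 1.26, 1.37, 0.747 and 0.728 FPKM in Control, 0.208, 0.328, 0.139, 0.503 and 1.35 FPKM in AngII, and 1.43, 0.0103, 0.0212, 1.12 and 0.0222 FPKM in AngII + QDG. The high mice of the other transcripts did not stand apart together: mouse 4048 was the highest of AngII, at 5.04 times the median of the other 4, but mouse 3971 was in the middle of Control and mouse 3985 was among the 3 AngII + QDG mice near 0. The ratio of Top2a to Mki67 accordingly ran from 0.00246 to 0.136 in the 3 high mice and from 0.00601 to 1.54 in the other 12. The AngII + QDG mice split into 3 near 0 and 2 above 1 FPKM, a gap not seen in the other groups, whose lowest value was 0.139 FPKM. The value is that of 1 transcript, so that reads the authors' pipeline gave to other transcripts of Top2a are not in it, and their part in this pattern was not tested.

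Ccnd1 (ENSMUST00000093962, chr7:144929931-144939831) and Ccnd2 (ENSMUST00000000188, chr6:127125162-127152188) encode cyclins D1 and D2, which answer to growth signals early in the cycle and are also made in resting cells. Ccnd1 was 14.9, 15.2, 17.1, 22.6 and 8.42 FPKM in Control, 17.1, 15.8, 18.1, 16.2 and 26.8 FPKM in AngII, and 16.4, 17.9, 20.0, 22.8 and 26.8 FPKM in AngII + QDG. Mice 3971, 4048 and 3985 were again the highest of their groups, at 1.50, 1.60 and 1.41 times the median of the other 4, but AngII + QDG mouse 3984, at 22.8 FPKM, was above Control mouse 3971. Ccnd2 was 24.7, 20.2, 29.4, 16.0 and 19.2 FPKM in Control, 9.38, 23.0, 25.8, 21.1 and 26.8 FPKM in AngII, and 25.2, 24.2, 28.1, 30.8 and 31.0 FPKM in AngII + QDG. For Ccnd2, Control mouse 3971 was the lowest of its group, and the highest AngII and AngII + QDG mice exceeded the next by under 1 FPKM. The 5 AngII + QDG mice lay close together in Ccnd2, between 24.2 and 31.0 FPKM, and 2 Control and 2 AngII mice lay within that range.

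The first comparison asked what AngII infusion alone did. Of the 7 transcripts, 5 passed the filter of 1 FPKM in at least 5 of the 10 mice, and 0 of these 5 reached a fold change of 2 with an unadjusted p below 0.05 (limma), against 1.50% of all 27327 transcripts tested. None had an unadjusted p below 0.05 at any fold change either, against 4.75% of all transcripts. On the log2(FPKM + 1) scale, Mki67 differed by 0.020 (AngII minus Control, SE 0.56, 95% interval -1.23 to 1.27, limma adjusted p = 1.00). Ccna2 differed by 0.21 (SE 0.47, interval -0.83 to 1.25, limma adjusted p = 0.995). The intervals of both reached past a log2 change of 1 in the upward direction, so that a change of that size was not detectable with this spread.

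The more abundant transcripts gave narrower intervals in the same comparison. Pcna differed by 0.20 (interval -0.30 to 0.71), Ccnd1 by 0.29 (interval -0.25 to 0.82) and Ccnd2 by -0.096 (interval -0.72 to 0.52), and the limma adjusted p was 0.995, 0.995 and 0.998. For these 3 transcripts, a log2 change of 1 in either direction lay outside the interval. Top2a and Ccnb1 did not pass the filter, and their differences of -0.37 and 0.18 had exact permutation p values of 0.151 and 0.730 (2-sided, 5 against 5 mice). With a pseudocount of 0.1 they were -0.95 and 0.31 (exact permutation p = 0.111 and 0.778). The smallest p that this test can give is 0.00794.

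The second comparison asked what QDG did in AngII-infused mice. Of the 7 transcripts, 6 passed the filter and 0 were called, against 3.53% of all 21081 transcripts tested, and 0 had an unadjusted p below 0.05 at any fold change, against 7.86% of all. Mki67 differed by 0.28 (AngII + QDG minus AngII, SE 0.51, interval -0.86 to 1.42, limma adjusted p = 0.996), Ccna2 by 0.11 (interval -0.97 to 1.19) and Ccnb1 by 0.36 (interval -0.77 to 1.48). Pcna differed by -0.036 (interval -0.59 to 0.51) and Ccnd1 by 0.14 (interval -0.26 to 0.54). The difference with the lowest p was that of Ccnd2, which averaged 27.9 ± 3.12 FPKM in AngII + QDG and 21.2 ± 6.99 FPKM in AngII (SD, n = 5 each), a log2 change of 0.45 (SE 0.25, interval -0.11 to 1.01, limma adjusted p = 0.790, exact permutation p = 0.0635). The ranges of these groups overlapped, and without AngII mouse 3988, at 9.38 FPKM, the Ccnd2 change was 0.20 (limma adjusted p = 0.981). After scaling by the 75th percentile, the Ccnd2 change was 0.31 (limma adjusted p = 0.682, exact permutation p = 0.270). The Top2a transcript, which did not pass the filter, differed by -0.049 with an exact permutation p of 0.905, and by -0.63 with a pseudocount of 0.1 (exact permutation p = 0.556). Ccnb1 differed by 0.87 with that pseudocount (limma adjusted p = 0.960).

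AngII + QDG was also set against Control. Here 5 of the 7 passed the filter and 0 were called, against 3.64% of all 21250 transcripts, and 0 had an unadjusted p below 0.05, against 8.98%. Ccnd1 averaged 20.8 ± 4.13 FPKM in AngII + QDG and 15.6 ± 5.08 FPKM in Control (SD, n = 5 each), a log2 change of 0.43 (interval -0.091 to 0.95, limma adjusted p = 0.711, exact permutation p = 0.111). Ccnd2 averaged 27.9 ± 3.12 FPKM against 21.9 ± 5.23 FPKM, a log2 change of 0.36 (interval -0.0079 to 0.72, limma adjusted p = 0.574, exact permutation p = 0.0635). Both D-type cyclins were thus higher on average, and neither passed the test. Leaving out Control mouse 4086 brought the unadjusted limma p of Ccnd2 to 0.0111 (adjusted p = 0.334), and leaving out Control mouse 3971 that of Ccnd1 to 0.0289 (adjusted p = 0.438). Each of these mice was the highest of Control in that transcript, so that leaving it out widens the difference. After scaling by the 75th percentile, Ccnd2 and Ccnd1 differed by 0.24 and 0.32 (limma adjusted p = 0.713 and 0.706, exact permutation p = 0.190 and 0.183). With all groups in 1 fit, the limma adjusted p was 0.802 and 0.646. Mki67, Ccna2 and Pcna differed by 0.30, 0.32 and 0.17 with limma adjusted p values of 0.956, 0.949 and 0.949. Top2a and Ccnb1, below the filter, differed by -0.42 and 0.53 with exact permutation p values of 0.183 and 0.294. With a pseudocount of 0.1 these differences were -1.59 and 1.19 (exact permutation p = 0.143 and 0.246), so that their size depends on the pseudocount and none passed the test.

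**Figure D2:**
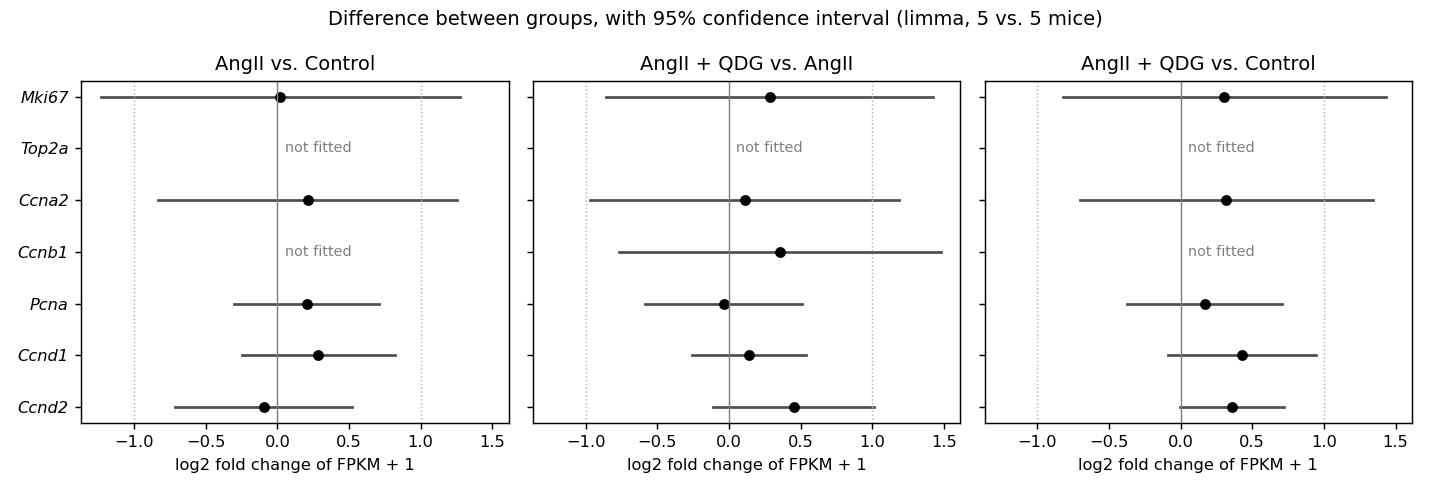
Difference between groups in log2(FPKM + 1) (x axis) of each transcript (y axis) in the 3 comparisons, with points for the limma estimate from 5 against 5 mice and bars for its 95% confidence interval. Dotted lines mark a fold change of 2 in either direction, and "not fitted" marks transcripts below the filter. Every interval includes 0, and those of Mki67 and Ccna2 pass the upper dotted line in all 3 panels.

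Each of the 3 comparisons shares its groups with another, so that they are not independent of each other. Over the 21 differences of a transcript between a pair of groups, 0 had an exact permutation p below 0.05 and the groups had values that did not overlap in 0 of 21. Over all transcripts tested, values that did not overlap were found in 0.732% for AngII and Control, 2.86% for AngII + QDG and AngII, and 3.24% for AngII + QDG and Control. The AngII + QDG files list a different set of transcripts from the Control and AngII files, and this and the QDG treatment cannot be told apart.

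The high mice widened the error of Mki67 and Ccna2. In AngII against Control, the SD of Mki67 within groups was 0.98 on the log2(FPKM + 1) scale, where transcripts of like level had 0.40, and that of Ccna2 was 0.81 against 0.40. Pcna, Ccnd1 and Ccnd2 had 0.38, 0.40 and 0.47 where transcripts of like level had 0.27, 0.30 and 0.29. When mice 3971, 4048 and 3985 were left out, the SD was 0.40 for Mki67 and 0.26 for Ccna2, and the limma difference of Mki67 between AngII and Control was -0.027. With the high mice left out, Mki67, Ccna2, Pcna, Ccnd1 and Ccnd2 were fitted in each comparison and 0 of these 5 were called, against 1.80%, 3.22% and 3.18% of all transcripts in AngII against Control, AngII + QDG against AngII and AngII + QDG against Control. Top2a and Ccnb1 did not pass the filter there.

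Whether the high mice belonged to these transcripts alone was read from all transcripts. For Mki67, Ccna2, Ccnb1, Pcna and Ccnd1, mice 3971, 4048 and 3985 were each the highest of their group. Of 23914 transcripts (those passing the filter over all groups), 1878 (7.85%) had these 3 mice on top, so that the pattern was not confined to these 5. Of the 21 sets of 5 values, 9 had a highest mouse far above the other 4 by Dixon's test, and 0 had a lowest mouse far below. Over all transcripts, the highest mouse stood that far above the other 4 in 7.41% for Control, 8.64% for AngII and 10.4% for AngII + QDG. The mice and the 5 transcripts were picked out after their values were seen, so that these shares are a description. In the measures of the whole library, the summed FPKM of mice 3971, 4048 and 3985 ranked 4, 4 and 1 among the 5 of their group, and the share of FPKM in the 10 highest transcripts ranked 5, 5 and 4, counted from the highest. Their mean Spearman correlation with the other mice of the group, 0.777, 0.782 and 0.775, ranked 4, 5 and 5, so that mice 4048 and 3985 were the least like the rest of their groups, within a range of 0.762 to 0.803 over all 15. Whether markers of other cells in the tissue piece moved with the transcripts was not tested, since the files name no genes.

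**Figure D3:**
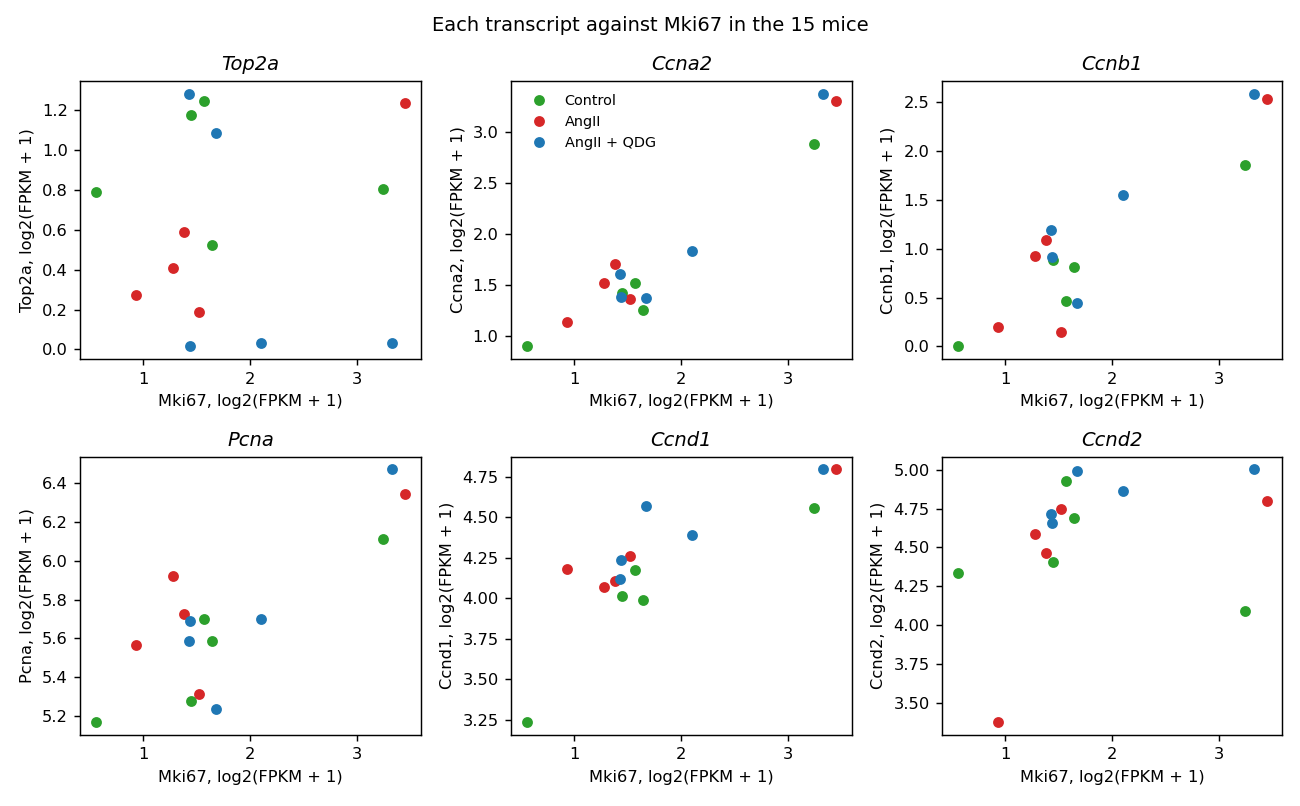
Each of the other 6 transcripts (y axis, log2(FPKM + 1)) against Mki67 (x axis, the same scale) in the 15 mice, coloured by group. Mice 3971, 4048 and 3985 form the set at the right of each panel, above the other mice in Ccna2, Ccnb1 and Pcna. In Top2a they lie among the others, and in Ccnd2 mouse 3971 lies low and mouse 3985 is the highest of the 15, at 31.0 FPKM against 30.8 FPKM in the next.

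Since the mice fell into 3 high and 12 low ones, the likeness of the transcripts to each other was measured within the 12. Over the 21 pairs, 8 had a positive Pearson correlation with a permutation p below 0.05 and 0 a negative one. The shares of all transcripts with a higher r than these pairs are given below. Ccna2 and Ccnb1 rose and fell together (r = 0.83, permutation p = 0.00063, Spearman's rho = 0.90, permutation p = 0.00025, n = 12). Without the 2 mice farthest from the median in Ccna2, their correlation was 0.66 (permutation p = 0.0406). Over all 15 mice, as planned, Ccna2 and Ccnb1 had r = 0.94 and rho = 0.95 (permutation p = 1e-05 each). Ccna2 and Pcna had r = 0.90 and rho = 0.88 there (permutation p = 4e-05 and 3e-05). Mki67 went with Ccnd2 (r = 0.66, permutation p = 0.0381, rho = 0.83, permutation p = 0.00144), and with the 2 farthest mice left out r was 0.91 (permutation p = 0.00209). Of the 21 pairs, these 2 had a Pearson p below 0.05 in the remaining 10 mice. Over all 15 mice, as planned, Mki67 and Ccnd2 had r = 0.31 (permutation p = 0.261) and rho = 0.62 (permutation p = 0.0157). As deviations from the group means, r was 0.27 and rho 0.49 (permutation p = 0.328 and 0.0644). Without the 2 mice of the 15 farthest in Mki67, r was 0.12 and rho 0.49 (permutation p = 0.635 and 0.0887). Their relation in r was thus found in the low mice alone, a set made after the values were seen.

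In the other pairs that passed, r was lower without the 2 farthest mice, and its p was no longer below 0.05. Mki67 and Ccna2 had r = 0.76 (permutation p = 0.00568) over the 12 mice but rho = 0.26 (permutation p = 0.416), and without the 2 mice farthest in Mki67 r was 0.23 and rho -0.28 (permutation p = 0.515 and 0.428). Mki67 and Ccnb1 had r = 0.64 (permutation p = 0.0224) and rho = 0.20 (permutation p = 0.545), and 0.12 and -0.39 without the 2 farthest mice. Over all 15 mice, as planned, Mki67 had r = 0.96 with Ccna2 and 0.90 with Ccnb1 (permutation p = 1e-05 each). There rho was 0.62 (permutation p = 0.0162) and 0.59 (permutation p = 0.0236). As deviations from the group means, rho was 0.81 (permutation p = 0.00039) and 0.70 (permutation p = 0.00497). Without the 2 mice of the 15 farthest in Mki67, r was 0.92 and 0.77 (permutation p = 0.0002 and 0.00099), and rho 0.42 and 0.37 (permutation p = 0.157 and 0.216). Mki67 and Ccnd1 had r = 0.77 (permutation p = 0.0103) and rho = 0.52 (permutation p = 0.0882), and r was 0.26 and rho 0.18 without the 2 farthest mice. Mki67 and Pcna had r = 0.29 (permutation p = 0.370). Pcna went with Ccna2 (r = 0.59, rho = 0.76, permutation p = 0.042 and 0.00609), and without the 2 farthest mice r was 0.36 and rho 0.62 (permutation p = 0.304 and 0.0607). Ccna2 and Ccnd1 had r = 0.61 and rho = 0.21 (permutation p = 0.0428 and 0.514), and r was -0.15 without the 2 farthest mice. Pcna also went with Ccnb1 (r = 0.59, rho = 0.74, permutation p = 0.0445 and 0.00802), and without the 2 farthest mice r was 0.33 and rho 0.64 (permutation p = 0.344 and 0.0549). Top2a had no pair with a p below 0.05, and its r with Mki67 was -0.096 (permutation p = 0.770). None of these p values was adjusted for the 21 pairs.

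Among all 23912 other transcripts, the share with a higher correlation to Mki67 over the 12 mice was 1.94% for Ccnd1, 2.05% for Ccna2, 5.76% for Ccnd2, 6.88% for Ccnb1, 32.6% for Pcna and 66.6% for Top2a. Over all 15 mice, the 3 high ones included, it was 0.0376% (9 transcripts) for Ccna2, 0.581% for Ccnb1, 1.85% for Ccnd1, 2.10% for Pcna, 29.7% for Ccnd2 and 55.6% for Top2a. Ccna2 and Ccnb1 were thus among the transcripts most like Mki67 with the high mice and less closely placed without them. Read from Ccnb1 over the 12 mice, 8 of the 23912 transcripts were more like it than Ccna2, and read from Ccna2, 30 were more like it than Ccnb1. The share above Ccnd1 was 4.35% and above Pcna 5.19% when read from Ccna2, and above Pcna 2.67% when read from Ccnb1. Read from the other side, these shares were 6.44%, 7.63% and 7.54%. The transcripts nearest to Mki67 cannot be named, since the files give identifiers alone and these were not matched to genes here.

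**Figure D4:**
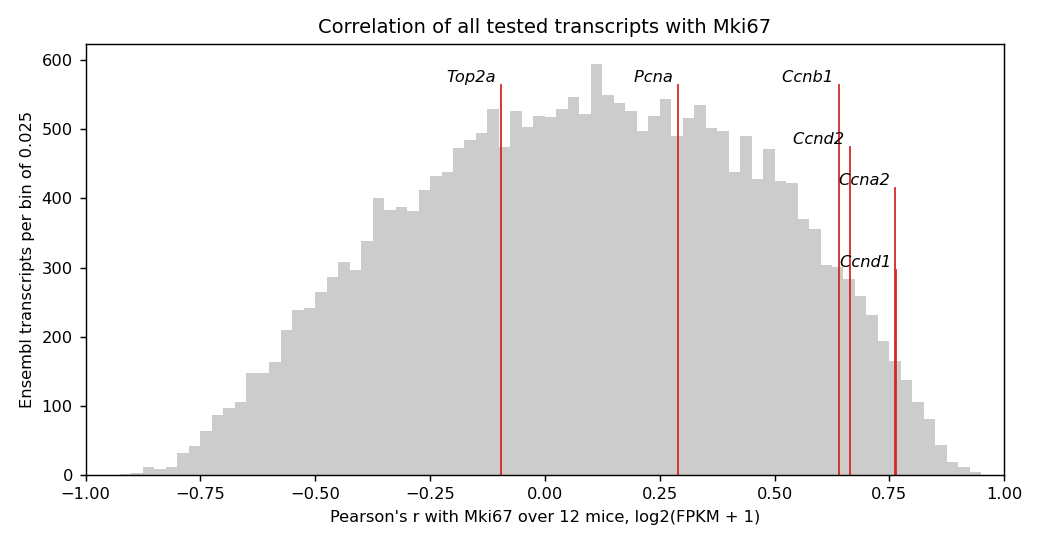
Number of transcripts (y axis, per bin of 0.025) by their Pearson correlation with Mki67 (x axis) over the 12 mice other than 3971, 4048 and 3985, with red lines at the other 6 transcripts. Ccna2 (r = 0.76) and Ccnd1 (r = 0.77) lie toward the right end of the distribution, with 2.05% and 1.94% of transcripts above them. Pcna and Top2a lie in its bulk, and 1.10% of all transcripts have r of 0.8 or more.

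Over the 15 libraries, summed FPKM ranged from 454587 to 547311, and 25675 to 29249 transcripts had at least 1 FPKM. FPKM give no read counts, so that the depth of each library and the counting error of each value are unknown. The files pair no identifiers with gene names, so that markers of the aortic wall could not be checked against the labelled tissue.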

How the data were processed

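Abdominal aorta RNA depleted of rRNA was sequenced from 15 mice. The labels name NEBNext kits. The methods name a Ribo-Zero kit for depletion and then a NEBNext module for poly(A) mRNA. Per the methods, reads were filtered with NGSQC, aligned to GRCm38/mm10 with HISAT2 and assembled with StringTie. The deposited values, made by the authors with 1 file per mouse and 1 value per transcript, were read as FPKM, a unit that StringTie writes, from their range and sums. The Control and AngII files hold 126719 transcripts and the AngII + QDG files 125443. The label descriptions of the AngII mice give doses running from 500 to 504 ng/kg/min, read here as 500.

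AngII was compared to Control over 126719 transcripts, and the comparisons with AngII + QDG used the 108027 shared Ensembl transcripts. Transcripts with at least 1 FPKM in at least 5 of the 10 mice were fitted with limma 3.58.1 (R 4.3.3, trended variance) on log2(FPKM + 1), so that changes of low transcripts are understated. A call was a fold change of at least 2 with an unadjusted p below 0.05, the thresholds of the study. Adjusted p values are Benjamini-Hochberg over all transcripts tested. Single transcripts were also compared by an exact 2-sided permutation test over mice (252 assignments, scipy 1.17.1). Correlations used log2(FPKM + 1) and 100000 permutations. The fit was tested on simulated data. All 7 transcripts are named in the text. The members and lists were chosen with earlier results of these data known. Genes were matched by symbol to RefSeq (GRCm38.p6), which held all 7, and the symbols came with the identifiers. Lists of further pathway genes and of cell type markers were planned and not run, since no table here pairs Ensembl transcripts with genes, and no sequences are shown. A count model was not used on FPKM. The alternatives tried were other filters, a pseudocount of 0.1, 1 fit over all groups, scaling by the 75th percentile, shared transcripts alone, and leaving out each mouse. Leaving out the 3 mice highest in Mki67, and the correlations over 12 and 10 mice, were added after the values were seen.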

Additional observations from a re-analysis of the deposited data

Results flagged for a closer look

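In 9 of 33 sets of 5 values looked at (21 of the 7 transcripts and 12 of library measures), the highest mouse lay so far above the other 4 that its gap to the nearest, divided by the range, passed Dixon's 95% critical value for 5 samples. Chance flags about 1 in 20 sets, which comes to 1.65 of 33, and the sets are not independent since the same mice recur. Over all 23914 transcripts the highest mouse was that far above in 7.41% for Control, 8.64% for AngII and 10.4% for AngII + QDG, more often than the nominal rate. Control mouse 3971 was flagged for Mki67 (8.45 FPKM, with the next Control mouse at 2.13 FPKM) and for Ccna2 (6.33 FPKM, next 1.85 FPKM). AngII mouse 4048 was flagged for Mki67 (9.91 FPKM, next 1.87 FPKM), Ccna2 (8.83 FPKM, next 2.25 FPKM), Ccnb1 (4.79 FPKM, next 1.13 FPKM) and Ccnd1 (26.8 FPKM, next 18.1 FPKM). AngII + QDG mouse 3985 was flagged for Mki67 (9.02 FPKM, next 3.30 FPKM), Ccna2 (9.34 FPKM, next 2.55 FPKM) and Pcna (87.6 FPKM, next 51.1 FPKM). Each flag fell on 1 of these 3 mice, and none on Top2a, Ccnd2 or a library measure.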

How the results depend on the processing

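In 49 fits under an alternative, 3 to 7 of the members passed the filter and 0 were called, against 0.464% to 5.10% of all transcripts. Top2a was fitted only with no filter and with all groups in 1 fit, and its other values come from the exact permutation test. Of 324 changes of a member computed under an alternative, 297 kept their direction and 27 reversed. Each of the reversals came from leaving out mice, except that Ccnd1 in AngII + QDG against AngII was -0.0015 after scaling by the 75th percentile, which moved the median of all transcripts from -0.0032 to -0.12. That scaling turned the calls of this comparison from 427 up and 317 down to 337 up and 440 down. Leaving out the mouse of each group highest in Mki67 gave -0.027 for Mki67 in AngII against Control and 0.24 for Top2a in AngII + QDG against AngII. Leaving out 1 mouse at a time gave, in AngII against Control, log2 changes from -0.41 to 0.41 for Mki67, -0.16 to 0.53 for Ccna2, -0.21 to 0.44 for Ccnb1, -0.20 to 0.16 for Ccnd2, 0.097 to 0.43 for Ccnd1, 0.063 to 0.34 for Pcna and -0.54 to -0.28 for Top2a. In AngII + QDG against AngII the ranges were -0.048 to 0.72 for Mki67, -0.25 to 0.12 for Top2a, -0.26 to 0.48 for Ccna2 and -0.22 to 0.11 for Pcna, and, without a change of sign, 0.15 to 0.58 for Ccnb1 in the 5 fits it passed, with 0.043 without mouse 3985 and 0.74 without mouse 4048 as unfitted differences, 0.048 to 0.27 for Ccnd1 and 0.20 to 0.55 for Ccnd2. In AngII + QDG against Control they were -0.028 to 0.69 for Mki67, -0.046 to 0.64 for Ccna2, -0.015 to 0.30 for Pcna, 0.22 to 0.80 for Ccnb1, 0.24 to 0.57 for Ccnd1, 0.26 to 0.47 for Ccnd2 and -0.62 to -0.30 for Top2a. The number of members with an exact permutation p below 0.05 ranged from 0 to 1 in each comparison when 1 mouse was left out. By the exact permutation test, these were Top2a in AngII against Control without mouse 4048 (p = 0.0317), Ccnd2 in AngII + QDG against AngII without mouse 4048 or without mouse 3982 (p = 0.0476 each), and, in AngII + QDG against Control, Ccnd2 without mouse 4086 and Ccnd1 without mouse 3971 (p = 0.0317 each). In limma, the unadjusted p in AngII + QDG against Control was below 0.05 in 4 of these fits, for Ccnd2 without mouse 3996 (0.0476), 4086 (0.0111) or 3982 (0.0477) and for Ccnd1 without mouse 3971 (0.0289), with adjusted p from 0.334 to 0.626 and a fold change under 2.

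Called transcripts with at least 1 FPKM in every mouse numbered 91, 209 and 235 in the 3 comparisons, against 409, 744 and 774, where fewer transcripts were tested. In AngII against Control, a pseudocount of 0.1 gave 652 and the shared Ensembl transcripts alone gave 244. Without 1 mouse at a time the calls ranged from 366 to 495, from 660 to 726 and from 687 to 745. Over all 15 mice, 10 of the 21 pairs of members had a positive correlation with a permutation p below 0.05, 7 had one without the 2 mice farthest from the median, and 2 had one in the 12 low mice without the 2 farthest, where, among the 10 pairs that passed over 15 mice, r changed sign for Mki67 with Pcna (-0.35), Ccna2 with Ccnd1 (-0.15) and Ccnb1 with Ccnd1 (-0.081). No paired analysis was possible because each mouse number occurs in 1 group alone.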
